A study of Homo sapiens with 3 samples.

Results

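Retinoic acid is made from retinol (vitamin A) in steps that are each carried out by a small enzyme family. Retinol dehydrogenases of the short-chain dehydrogenase/reductase family, such as RDH10 and DHRS9, oxidize retinol to retinal, reductases such as DHRS3 and RDH11 carry retinal back to retinol, and retinal dehydrogenases such as ALDH1A3 oxidize retinal to retinoic acid. CRABP2 carries retinoic acid to the nuclear receptors RARA and RARG, which act as partners of the RXR receptors, and the cytochromes CYP26A1 and CYP26B1 inactivate it. In the intestine this pathway is known for its part in epithelial differentiation. The 10 genes described here (*DHRS3*, *DHRS9*, *RDH10*, *RDH11*, *ALDH1A3*, *CYP26A1*, *CYP26B1*, *CRABP2*, *RARA* and *RARG*) were chosen by symbol for these roles, with earlier results of these data known. Each has 1 row among the 23131 gene rows of the deposited table. The comparison asks how their transcripts differ when *APC* is silenced.

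The cells were HCT-116, a colon carcinoma line whose source label gives wild-type APC and the allele CTNNB1ΔSer45, which encodes a β-catenin that resists degradation. All libraries share this background, so canonical WNT signaling was already active in the controls. Cells received Dharmafect 2 on consecutive days with pooled anti-*APC* siRNA or with pooled scrambled siRNA, or received no siRNA, and were harvested 48 hours after the second transfection. Each of the 3 conditions gave 1 library. The no-siRNA library is called untransfected in its title and mock in its treatment label, so whether its cells received the reagent is not settled. That library is called mock here. The table pairs the anti-*APC* library with the mock, and the library from scrambled siRNA cells was not used here. Every ratio below is therefore anti-*APC* siRNA over mock. Any effect of delivering siRNA, or of the reagent if the mock cells had none, cannot be told apart from that of silencing *APC*.

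Levels are in FPKM, a read density per kilobase of transcript that is scaled by library size, which allows genes to be compared with each other. With 1 library per condition there are no replicates, no difference was tested, and no error between cultures is known. The intervals given are 95% intervals for counting error only, from read numbers estimated with a depth near 25800000 reads for the mock and 23600000 for the anti-*APC* library. A gene was counted as measured if both libraries were above 0 with a mean of at least 1 FPKM, which held for 12063 genes. In bulk RNA, fewer cells that express a gene and less RNA per cell cannot be told apart.

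The siRNA target, *APC*, stood at 9.15 FPKM in the mock and at 3.43 FPKM in the anti-*APC* library, a ratio of 0.375 (0.347 to 0.406). *AXIN2*, a WNT feedback gene, had 4.11 and 28.7 FPKM in the same order. The median log2 ratio of all measured genes was -0.05. The 6 colon epithelial markers examined were present, *EPCAM* at 190 FPKM in the mock and 170 FPKM in the anti-*APC* library. All 6 were lower with anti-*APC* siRNA, 2 of them past 1.5-fold (*CDH1* and *CLDN4*), beside 6.61% of all measured genes at least 1.5-fold lower. The summed level of the 6 markers was 1687 FPKM in the mock and 1313 FPKM in the anti-*APC* library. Their part in the results below was not tested. The leukocyte markers summed to at most 0.293 FPKM and the endothelial markers to at most 0.0725 FPKM in either library. Of the fibroblast markers, *COL1A1* had 2.85 FPKM in the mock and 3.08 FPKM in the anti-*APC* library, *LUM* was listed at 0 in both, and *DCN*, *COL1A2* and *COL3A1* reached at most 0.0239 FPKM.

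Of the 10 genes, 8 were measured, and 3 of these 8 were at least 1.5-fold lower in the anti-*APC* library. They are *DHRS3*, *ALDH1A3* and *RARG*, a reductase, a retinal dehydrogenase and a receptor. None of the 8 was at least 1.5-fold higher. Over all 12063 measured genes, 6.61% were at least 1.5-fold lower and 2.56% at least 1.5-fold higher, 9.17% in all. Because the 10 genes were chosen with earlier results of these data known, their count beside these shares is description only. The other 5 measured genes (*RDH10*, *RDH11*, *CYP26B1*, *CRABP2* and *RARA*) had ratios from 0.895 to 0.971. The median log2 ratio of the 8 was -0.16, beside -0.05 for all measured genes. *DHRS9* and *CYP26A1* were below 1 FPKM in both libraries and entered no count.

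**Figure D1:**
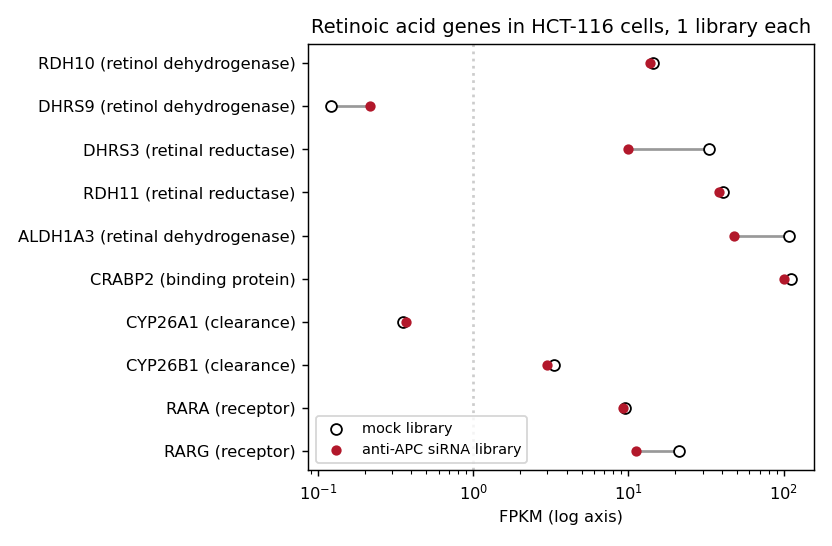
FPKM (log axis) of the 10 genes in the mock library (open circles) and the anti-APC siRNA library (filled circles), 1 library each, with a grey line joining the pair and a dotted line at 1 FPKM. The pairs of DHRS3, ALDH1A3 and RARG are far apart with the anti-APC library lower, the circles of RDH10, RDH11, CRABP2, CYP26A1, CYP26B1 and RARA overlap or nearly so, and DHRS9 and CYP26A1 lie left of the dotted line.

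The promoters of the 3 lower genes are shown because these genes moved in the same direction. The sequences are RefSeq windows for the GRCh38.p14 assembly that matched GRCh37 at 1 place, given 5′ to 3′ on the gene's strand from 250 to 51 bases before the start site (chr1:12678267-12678466, minus strand, for *DHRS3*; chr15:101419786-101419985, plus strand, for *ALDH1A3*; chr12:53626044-53626243, minus strand, for *RARG*). The *DHRS3* start site used lies 396 bases upstream of the 5′ end that the table gives. Those used for *ALDH1A3* and *RARG* lie 27 and 43 bases downstream of theirs. By the GENCODE gene positions given below, the *ALDH1A3* and *RARG* windows lie inside the gene.
DHRS3: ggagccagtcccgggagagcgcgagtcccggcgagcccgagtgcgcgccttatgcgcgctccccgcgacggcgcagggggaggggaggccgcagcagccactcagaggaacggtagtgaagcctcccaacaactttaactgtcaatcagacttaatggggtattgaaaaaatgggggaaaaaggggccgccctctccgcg
ALDH1A3: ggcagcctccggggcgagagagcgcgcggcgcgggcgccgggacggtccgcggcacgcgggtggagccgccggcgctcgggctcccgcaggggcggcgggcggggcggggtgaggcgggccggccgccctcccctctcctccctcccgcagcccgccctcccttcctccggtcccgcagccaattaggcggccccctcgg
RARG: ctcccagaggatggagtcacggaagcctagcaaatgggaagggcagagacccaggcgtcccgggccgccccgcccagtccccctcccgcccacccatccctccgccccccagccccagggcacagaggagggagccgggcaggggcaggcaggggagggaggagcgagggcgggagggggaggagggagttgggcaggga

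All of these windows are rich in G and C, at 65.2% for *DHRS3*, 82.4% for *ALDH1A3* and 69.6% for *RARG* over the 250 bases before the start site. Nothing is in capitals because none of the 4 motifs searched on both strands matched there. The motifs were the retinoic acid response elements DR5 and DR2, the TCF7L2 site (CAAAG after 2 bases that are each A or T) and the AP-1 site (TGACTCA, which covers its reverse complement). A DR5 or DR2 element was taken as a pair of hexamers in the same orientation, 5 or 2 bases apart, where a hexamer was A or G, then G, then G or T, and then TCA. The hexamers and the AP-1 site share the letters TCA. The absence of a match says only that these letters are not in these windows.

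For contrast, the 29-base stretches that hold the DR5 element (in capitals) of *CYP26A1* and of *RARB*, a receptor gene that retinoic acid is known to induce, are shown. The *CYP26A1* stretch (chr10:94833554-94833582 of GRCh37, plus strand) holds the element on the opposite strand, from 90 to 74 bases before one of the gene's start sites. That start site lies 418 bases downstream of the listed 5′ end of the gene. The *CYP26A1* window nearest that end, the choice made for the lower genes, held no DR5 element. No other window of the lower genes held one either. The *RARB* stretch is at chr3:25469695-25469723, plus strand, and its element lies 53 to 37 bases before a start site.
CYP26A1: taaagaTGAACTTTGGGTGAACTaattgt
RARB: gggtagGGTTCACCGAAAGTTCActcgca

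A DR5 element was found in 0.074% of all 35116 RefSeq promoter windows of this length and a DR2 element in 0.0313%. A TCF7L2 site was found in 12% of the windows and an AP-1 site in 4.2%. Of the 10 genes 9 had at least 1 window, 17 windows in all, the exception being *RDH10*. Among the 17, 1 held a DR5 element (*CYP26A1*), 2 held a TCF7L2 site (1 of *DHRS9* and that of *CYP26B1*), and 2 held an AP-1 site (another of *DHRS9*, and a downstream start site of *DHRS3*).

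*RDH10* encodes the retinol dehydrogenase that makes most retinal in the embryo. It lies on chromosome 8 from 74206837 to 74237516 on the plus strand (GENCODE 44 on GRCh37, used for all gene positions). Its exons overlap those of the antisense gene *RDH10-AS1*. Its span also overlaps *RPL7* on the opposite strand, without shared exon sequence. *RPL7* had 819 FPKM in the mock and 903 FPKM in the anti-*APC* library. *RDH10* had 14.4 FPKM in the mock and 13.8 FPKM in the anti-*APC* library, a ratio of 0.959 whose counting interval (0.890 to 1.035) includes 1. The other gene of this role, *DHRS9* (chromosome 2, 169921299 to 169952677, plus strand), had 0.122 FPKM in the mock and 0.218 FPKM in the anti-*APC* library. These levels correspond to about 5 and 8 reads, so the ratio of 1.79 has a counting interval from 0.506 to 6.81, and a difference in *DHRS9* was not detectable at this depth. Per length, *RDH10* was 118 times as abundant as *DHRS9* in the mock library and 63.6 times in the anti-*APC* library.

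*DHRS3*, which encodes a retinal reductase that lowers the retinal available for retinoic acid synthesis and is itself known to be induced by retinoic acid, showed the lowest ratio of the 10 genes. It had 33.1 FPKM in the mock library (31.6 to 34.6) and 9.99 FPKM in the anti-*APC* library (9.15 to 10.9), so that 0.302 of the mock level was found (0.273 to 0.333). Its log2 ratio was -1.73. Only 29 of the 12063 measured genes had a lower log2 ratio, which places *DHRS3* at the 0.24 percentile. The gene has 8 exons in its canonical transcript and lies on chromosome 1 from 12627939 to 12678216 on the minus strand. No annotated exon of another gene overlaps its exons.

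*RDH11*, which encodes another enzyme that can reduce retinal, was nearly level between the libraries. It had 40.7 FPKM in the mock and 38.5 FPKM in the anti-*APC* library, a ratio of 0.946 (0.894 to 1.000). It lies on chromosome 14 from 68143517 to 68162510 on the minus strand. Another protein-coding gene model, not listed in the table, shares exon sequence with it on the same strand. Because *DHRS3* was lower and *RDH11* and *RDH10* were nearly level, the order of the enzymes differed between the libraries. *RDH10* stood at 0.436 of the *DHRS3* level in the mock library and at 1.39 times it in the anti-*APC* library, and *RDH11* stood at 1.23 and 3.85 times the *DHRS3* level.

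*ALDH1A3* encodes the retinal dehydrogenase that makes retinoic acid from retinal. It had 108 FPKM in the mock library (106 to 110) and 47.8 FPKM in the anti-*APC* library (46.3 to 49.3). The ratio was 0.441 (0.425 to 0.458) and the log2 ratio -1.18, lower than in all but 99 of the 12063 measured genes. *ALDH1A3* lies on chromosome 15 from 101417919 to 101456831 on the plus strand, with 13 exons in its canonical transcript. Its exons overlap those of *ALDH1A3-AS1* on the opposite strand and of a long non-coding RNA on the same strand, and neither has a row in the table. *ALDH1A3* was the only retinal dehydrogenase gene listed that exceeded 1 FPKM. *ALDH1A1* was listed at 0 in both libraries. *ALDH1A2* was listed at 0 in the mock and at 0.0241 FPKM in the anti-*APC* library, about 2 reads. *ALDH8A1*, which acts on the 9-cis form of retinal, had 0.545 FPKM in the mock and 0.420 FPKM in the anti-*APC* library.

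*CRABP2* encodes the protein that hands retinoic acid to its receptors, and was the most abundant of the 10 genes in both libraries. It had 112 FPKM in the mock library (108 to 116.4) and 100.3 FPKM in the anti-*APC* library (96.3 to 104.5). The ratio was 0.895 (0.846 to 0.945) and the log2 ratio -0.16. This interval excludes 1 for counting error, but the shift is small beside differences that are common in the table: 34.1% of measured genes had a lower log2 ratio. *CRABP2* is on chromosome 1 from 156669398 to 156675608, minus strand. Its level and that of *ALDH1A3* had overlapping counting intervals in the mock library, whereas in the anti-*APC* library *CRABP2* was 2.10 times as abundant as *ALDH1A3*. *CRABP1*, the related carrier, was listed at 0 in both libraries.

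The retinoic acid hydroxylases were expressed at low levels. *CYP26B1* (chromosome 2, 72356367 to 72374991, minus strand) had 3.31 FPKM in the mock and 2.99 FPKM in the anti-*APC* library, a ratio of 0.902 (0.775 to 1.048). *CYP26A1* (chromosome 10, 94833232 to 94837642, plus strand), the hydroxylase gene with the DR5 element printed above and a classic retinoic acid target, had 0.353 FPKM in the mock and 0.368 FPKM in the anti-*APC* library. About 19 and 18 reads lie behind these values. The ratio of 1.04 thus has an interval from 0.514 to 2.09, and a change smaller than about 2-fold in either direction was not detectable. A long non-coding RNA on the same strand, without a row of its own, shares exon sequence with *CYP26A1*. *CYP26C1* was listed at 0 in both libraries. Per length, *CYP26B1* was 9.39 times as abundant as *CYP26A1* in the mock and 8.13 times in the anti-*APC* library.

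The receptor genes *RARA* and *RARG* differed in their ratios. *RARG* (chromosome 12, 53604351 to 53626764, minus strand) had 21.3 FPKM in the mock library (20.2 to 22.3) and 11.2 FPKM in the anti-*APC* library (10.5 to 12.1). This is a ratio of 0.528 (0.484 to 0.576) and a log2 ratio of -0.92, at the 1.78 percentile of measured genes. *RARA* (chromosome 17, 38465432 to 38513895, plus strand) had 9.54 FPKM in the mock and 9.26 FPKM in the anti-*APC* library, a ratio of 0.971 (0.876 to 1.07). Its exons overlap those of the antisense gene *RARA-AS1*. *RARA* therefore stood at 0.448 of the *RARG* level in the mock library and at 0.824 of it in the anti-*APC* library. The counting intervals of the *RARA* and *RARG* ratios do not overlap. Without replicates, that says nothing of how far such ratios vary between cultures. *RARB*, the third receptor of this type, was near the limit of detection, with 0.0267 FPKM in the mock and 0.0732 FPKM in the anti-*APC* library. These are about 2 and 5 reads, with a counting interval of the ratio from 0.448 to 28.8.

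**Figure D2:**
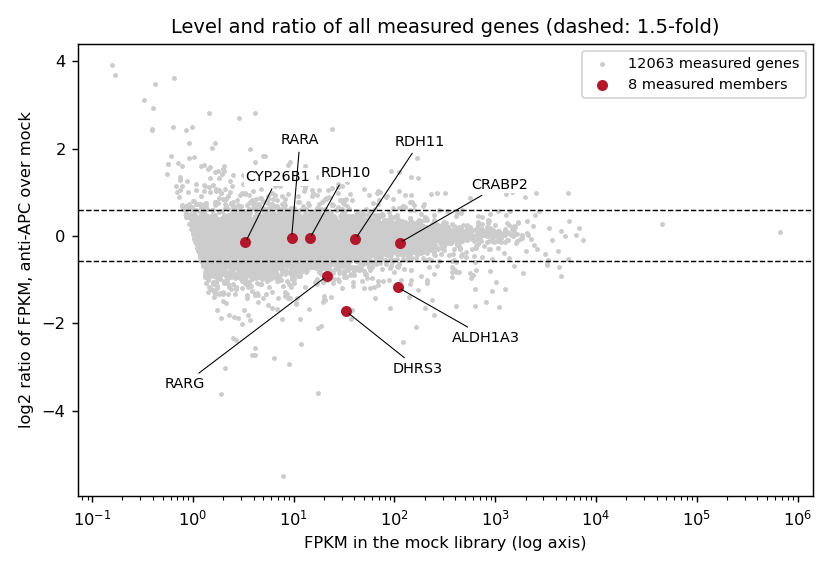
Log2 ratio of FPKM (anti-APC over mock, linear axis of log2 units) against FPKM in the mock library (log axis) for the 12063 measured genes (grey points) and the 8 measured retinoic acid genes (labelled points), with dashed lines at 1.5-fold. DHRS3, ALDH1A3 and RARG lie below the lower dashed line at -1.73, -1.18 and -0.92, and the other 5 lie between the lines.

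In the mock library the order of levels was *CRABP2*, *ALDH1A3*, *RDH11*, *DHRS3*, *RARG*, *RDH10*, *RARA*, *CYP26B1*, *CYP26A1* and *DHRS9*. Counting intervals of neighbours overlapped for *CRABP2* with *ALDH1A3* and for *CYP26A1* with *DHRS9*. In the anti-*APC* library *RDH10*, at 13.8 FPKM, stood above *RARG* and *DHRS3*. There the intervals of *RARG* and *DHRS3* overlapped, as did those of *DHRS3* and *RARA* and those of *CYP26A1* and *DHRS9*. The spread between cultures, which would set how firm this order is, is unknown.

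A wider list of 58 other genes of the pathway was examined by role, of which 57 had a row. Of these, 28 were measured, with 1 at least 1.5-fold higher, 2 at least 1.5-fold lower and 25 within 1.5-fold. The 3 genes past this limit were *DHRS2* (higher) and *NR2F1* and *PDK4* (lower), so 10.7% of the measured list was past it, against 9.17% of all measured genes. The median log2 ratio of the 28 was -0.13. Of the 57 genes with a row, 12 were listed at 0 in both libraries. 1 of these, the retinol dehydrogenase gene *RDH5*, is marked as failed by Cuffdiff. All 269 failed rows are listed at 0, so this value is not evidence that *RDH5* was silent.

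*STRA6*, which encodes a membrane receptor for retinol uptake, had 0.0401 FPKM in the mock and 0.0146 FPKM in the anti-*APC* library, about 3 and 1 reads. *RBP7* and *FABP5*, which also bind retinoids or fatty acids, had ratios of 0.856 and 0.980, and *RBP2* and *RBP4* were listed at 0 in both libraries.

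Of the other 14 oxidoreductase genes 6 were measured. *DHRS2*, a paralogue of *DHRS4*, had 6.51 FPKM in the mock and 14.3 FPKM in the anti-*APC* library, a ratio of 2.19 (1.90 to 2.54). *RDH13*, *RDH14* and *DHRS4* had ratios of 0.983, 0.828 and 0.877. *DHRS4* has near-identical neighbouring copies and *RDH14* shares its row's locus with other genes, so the division of reads is uncertain for both. *SDR16C5* and *HSD17B6* were near 1 FPKM, with intervals that include 1. The storage genes *LRAT* and *DGAT1*, and *RPE65*, which was listed with them, had ratios of 0.765, 0.906 and 0.738, none past 1.5-fold. The *RPE65* interval (0.530 to 1.03) includes 1.

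Of the receptor partners and relatives, *RXRA* had 10.5 FPKM in the mock and 8.41 FPKM in the anti-*APC* library. Its ratio was 0.804 (0.743 to 0.869), within 1.5-fold, in a row whose locus is shared with another gene. *RXRB*, which the table places on an alternative haplotype of chromosome 6, had 14.2 FPKM in both, and *RXRG* was listed at 0. The orphan receptor genes *NR2F1* and *NR2F2*, whose proteins can occupy retinoic acid response elements, differed in direction. *NR2F1* had 16.8 FPKM in the mock and 10.7 FPKM in the anti-*APC* library, a ratio of 0.636 (0.587 to 0.689). *NR2F2* had 39.2 and 53.3 FPKM in the same order, a ratio of 1.36 (1.31 to 1.41) that stayed within 1.5-fold, in a row whose locus is shared with another gene. All 8 coregulator genes were measured and within 1.5-fold. They include the corepressors *NCOR1* (ratio 1.20), *CTBP1* (0.907) and *CTBP2* (0.964), and the demethylase *KDM1A* (1.03).

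Of 14 other genes known to respond to retinoic acid, 6 were measured, and 1 of these (*PDK4*) was past 1.5-fold, lower. Over all measured genes, 6.61% were at least 1.5-fold lower and 2.56% at least 1.5-fold higher. *PDK4*, a kinase gene of glucose metabolism, had 1.35 FPKM in the mock and 0.794 FPKM in the anti-*APC* library, a ratio of 0.590 (0.430 to 0.796). It exceeded 1 FPKM in the mock library alone, and with a pseudocount of 1 FPKM it was within 1.5-fold. *TGM2* and *UCP2* had log2 ratios of 0.33 and 0.26. *NRIP1*, *LRAT* and *MEIS2* had log2 ratios of -0.46, -0.39 and -0.20. *RARRES1* was listed at 0 in the anti-*APC* library and at 0.123 FPKM, about 5 reads, in the mock. The measured genes of this list thus lay on both sides of the mock level, and the counting interval of the *UCP2* ratio (0.991 to 1.455) includes 1. The median log2 ratio of the 6 was -0.29, beside -0.05 for all measured genes. The list and its median leave out the 10 genes described above. Among those, *DHRS3* and *CYP26A1* are also retinoic acid targets, with ratios of 0.302 and 1.04. *CYP26A1* was below 1 FPKM in both libraries.

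**Figure D3:**
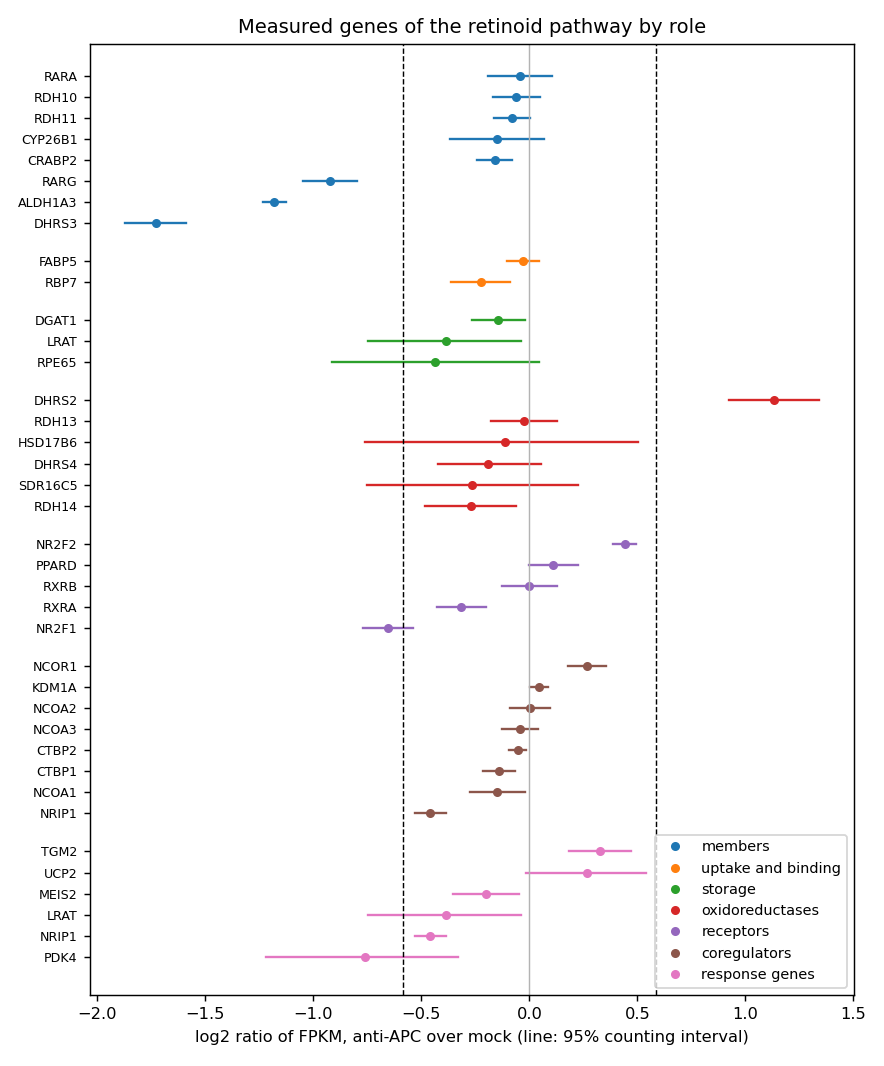
Log2 ratio of FPKM (anti-APC over mock) for each measured gene, grouped by role and coloured by group, with horizontal lines for 95% counting intervals and dashed lines at 1.5-fold (LRAT and NRIP1 appear in 2 groups). DHRS3, ALDH1A3, RARG, NR2F1 and PDK4 lie left of the lower dashed line, DHRS2 lies right of the upper one, and all coregulators lie between them.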

How the data were processed

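Single-read TruSeq RNA libraries were made from HCT-116 cells. Per the labels, the authors used Cufflinks and Cuffdiff with build hg19 (GRCh37). The aligner, the annotation, the versions and the use of strand are not given in the sources used here. Each library has 1 column of FPKM, as deposited by the authors, and no read counts. The table also holds the authors' own comparison (log fold change, test statistic, p and q), which was not used.

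Ratios of FPKM were computed without a pseudocount. A gene was measured if its status was not FAIL, both libraries were above 0 and their mean was at least 1 FPKM, and a fold limit of 1.5 was used for counts. Depth was estimated from 1659 genes below 0.1 FPKM. In 310 of them the log2 ratio was 0.131 (within 0.002), that of equal read numbers, and 256 of these had a canonical transcript length in GENCODE 44 on GRCh37. The densest 10% window of implied depths (66 genes) gave the depth. Estimated reads gave exact conditional binomial (Clopper-Pearson) intervals of ratios and exact Poisson intervals of levels. They assume the canonical transcript, are not corrected for reads shared between isoforms, and cover counting error only. Calls and intervals were tested on simulated Poisson counts with known depth and a fixed transcript length. That test did not cover the depth estimate, the canonical lengths, reads shared between isoforms or variation between cultures.

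Genes named are the 10 members, *APC* and *AXIN2*, the listed pathway genes past the fold limit, and the members' paralogues. Other listed genes are given as examples. A few genes were left out of the pathway list, its counts and its medians, and are not reported here. Members and lists were chosen with earlier results of these data known. Promoter windows are from RefSeq (GRCh38.p14), and gene positions are from GENCODE, 1-based. Alternatives were other fold limits, pseudocounts, filters, median centring and loci with 1 row. Software was scipy 1.17.1, pandas 2.3.3, numpy 2.4.6 and matplotlib 3.10.9 under Python 3.11.15.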

Additional observations from a re-analysis of the deposited data

How the results depend on the processing

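*DHRS3*, *ALDH1A3* and *RARG* stayed at least 1.5-fold lower with pseudocounts of 0.1 and 1 FPKM, after the median was subtracted, with a minimum mean of 5 FPKM and among rows alone at their locus. The minimum and the locus setting only drop genes and change no ratio, so they could not alter this result. At a fold limit of 2 only *DHRS3* and *ALDH1A3* remained. Without the filter on level, *DHRS9* joined as the only higher gene. All 30 recomputed log2 ratios of the 10 genes stayed within their counting intervals, though that of *RARA* went from -0.04 to 0.01 when the median was subtracted. Of the pathway list, *PDK4* was no longer past 1.5-fold with a pseudocount of 1 FPKM and did not reach the minimum of 5 FPKM, which left 2 genes past it in each case. At a fold limit of 2, the genes past it numbered 280 of all genes and 1 of the pathway list. At the lowest fold limit tried (a log2 ratio of 0.32) they numbered 3084 and 8. Without the filter on level, the genes past 1.5-fold numbered 3162 (of 16289 genes) and 9 (of 41 pathway genes). With a pseudocount of 1 FPKM 675 of all genes were past 1.5-fold, with a minimum of 5 FPKM 533 (of 9201 genes), and at loci with 1 row 735 (of 9164). After the median was subtracted, 353 genes were higher and 652 lower, against 309 and 797 before. The comparison with scrambled siRNA as control was not run. No paired analysis was possible because each condition had 1 library.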

Other observations

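The larger gene families of the retinoic acid genes were examined by symbol after the values of the 10 genes had been seen. The share of all measured genes at least 1.5-fold lower was 6.61% and that at least 1.5-fold higher 2.56%. Of 19 aldehyde dehydrogenase genes 12 were measured. None was at least 1.5-fold higher in the anti-*APC* library and 3 were at least 1.5-fold lower: *ALDH1A3*, *ALDH3A2*, which oxidizes fatty aldehydes (27.3 FPKM in the mock and 17.1 FPKM in the anti-*APC* library), and *ALDH3B1* (5.33 and 2.10 FPKM in the same order). The median log2 ratio of the 12 was -0.35, against -0.05 for all measured genes. Of 21 genes with *DHRS* or *RDH* symbols 14 were measured, with *DHRS2* higher, *DHRS3* lower and the other 12 within 1.5-fold, at a median log2 ratio of -0.07.

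Of 62 cytochrome P450 genes 13 were measured, none higher and 4 lower (6.61% of all measured genes were lower). 1 of the 4, *CYP2U1*, exceeded 1 FPKM in the mock library alone (1.54 against 0.898 FPKM). The others include *CYP24A1*, which inactivates vitamin D and is induced by the vitamin D receptor with an RXR partner, at 81.5 FPKM in the mock and 52.5 FPKM in the anti-*APC* library. *CYP4F11*, a fatty acid hydroxylase gene, had 6.05 and 2.47 FPKM in the same order. Of 48 nuclear receptor genes 26 were measured, with 1 higher (*NR4A2*, from 3.96 to 8.05 FPKM) and 3 lower (*RARG*, *NR2F1* and *NR2F6*, the last from 28.4 to 15.8 FPKM), beside 2.56% higher and 6.61% lower over all measured genes. These counts describe 1 pair of libraries and were not tested.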
